A study of Mus musculus with 17 samples.

Results

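The genes described here are 49 nuclear genes for subunits of the mitochondrial respiratory chain, followed across mouse embryonic fibroblasts (MEFs) that differ in Usp28, the gene for a deubiquitinase. The rule picks them by symbol from a list of subunits and uses no measured value, although the list was drawn up with earlier results of these data known. The list holds 33 genes of complex I, 4 of complex II, 7 of complex III and 5 of complex IV. All 49 symbols matched 1 identifier in each deposited table, out of 37576 genes in the table of the immortalized cells and 33440 in the table of the Ras-transformed cells.

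RNA came from 17 libraries of C57BL/6 MEFs (E13.5 embryos), and every library, the controls included, came from cells immortalized with the vector pRetroSuper-shp19ARF, made to silence the tumour suppressor p19ARF. The immortalized set has Usp28 +/+, +/- and -/- cells, with 3 libraries each. The Ras set has 4 groups of 2 libraries, all carrying pBabe-HRasG12V, an activated form of the small GTPase HRas. Of these, +/+, +/- and -/- cells carry pWZL-GFP, and a second group of +/+ cells overexpresses USP28 from pWZL-USP28. The design text calls the immortalized replicates biological. For the Ras duplicates nothing says whether they are separate cultures, so their p-values may measure technical spread alone.

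The authors' deposited tables hold comparisons of groups with +/+ and no values for single libraries. Each group therefore has 1 level per gene, in reads per 1000000 reads (RPM), with no spread between replicates. The log2 folds and p-values are the authors' own, turned here to the other group over +/+, and adjusted p-values are Benjamini-Hochberg values computed here over all genes that averaged 1 RPM or more across the groups compared. A gene is called where that adjusted p is under 0.05. The standard error (SE) beside a fold is implied by the common dispersion that the deposited edgeR p-values contain, so it is the error of a typical gene and not a spread measured for that gene. Depth summed over a group was 11.4 to 13.95 M reads (M, 1000000). Every member was well covered: levels ran from 9.54 to 263.3 RPM, the fewest reads in any group were 108.6, and all 49 passed the filter in every comparison.

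The respiratory chain sits in the inner mitochondrial membrane and passes electrons from NADH and succinate to oxygen. Complex I takes them from NADH, complex II (succinate dehydrogenase, also an enzyme of the citric acid cycle) takes them from succinate, complex III passes them from ubiquinol to cytochrome c, and complex IV reduces oxygen. Complexes I, III and IV pump protons, and ATP synthase uses the resulting gradient. The chain is built from 2 genomes: most subunits are encoded in the nucleus, while a small set of core membrane subunits is encoded in mitochondrial DNA. Nuclear respiratory factor 1 (NRF1), ETS family factors such as GABP, and YY1 are well-known regulators of the nuclear genes.

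Promoter sequence was looked at because many of these genes share binding motifs for those factors. The RefSeq promoter table (build GRCm38.p6, 1 window per symbol, 250 bases before the start and 50 after) matched 39 of the 49 members. The NRF1 motif (GCGC, any base, then TGCGC), searched on both strands, was in 10 of these 39 windows (25.6%) and in 4.8% of all 27025 windows. The ETS motif CCGGAAG was in 7 member windows (17.9%), against 9.1% of all. The YY1 motif AAGATGGCG was in 4 member windows (10.3%), against 1.5% of all. Among the 18 members with a window that were called in a Ras comparison described below, 4 held the NRF1 motif, 4 the ETS motif and 3 the YY1 motif. The sequences shown are the 150 bases before the RefSeq start, 5′ to 3′ on the gene's strand, of the called members with a whole match there. Capitals mark matches to the NRF1 or ETS motif on either strand.
Ndufs6: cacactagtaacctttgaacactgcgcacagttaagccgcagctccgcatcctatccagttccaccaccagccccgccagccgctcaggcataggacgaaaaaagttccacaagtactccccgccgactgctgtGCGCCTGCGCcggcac
Sdha: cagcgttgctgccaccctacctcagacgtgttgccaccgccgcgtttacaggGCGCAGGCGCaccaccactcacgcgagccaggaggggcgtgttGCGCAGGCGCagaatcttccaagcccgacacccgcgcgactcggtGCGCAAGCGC
Sdhd: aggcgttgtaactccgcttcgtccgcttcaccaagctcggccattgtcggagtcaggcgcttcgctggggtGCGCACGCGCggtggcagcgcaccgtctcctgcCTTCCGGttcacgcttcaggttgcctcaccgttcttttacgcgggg
Uqcrh: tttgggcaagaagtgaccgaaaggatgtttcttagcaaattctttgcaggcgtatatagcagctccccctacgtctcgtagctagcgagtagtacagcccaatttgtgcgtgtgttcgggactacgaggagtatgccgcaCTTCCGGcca
They lie on the minus strand at chr13:73328483-73328632 (Ndufs6), chr13:74350241-74350390 (Sdha), chr9:50603850-50603999 (Sdhd) and chr4:116075071-116075220 (Uqcrh). Sdha has 3 NRF1 matches in this stretch, Sdhd has 1 NRF1 and 1 ETS match, Ndufs6 has 1 NRF1 match next to the start, and Uqcrh has 1 ETS match. A match is a run of letters and was not tested as a binding site.

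Usp28 itself was detected in every group, so its transcript does not check the labels. Its level was 16.5 RPM in immortalized +/+, 9.96 in +/- and 13.3 in -/- cells. Among Ras-transformed cells it was 26.5 RPM in +/+, 18.6 in +/-, 14.8 in -/- and 26.4 in the cells with USP28. By the deposited edgeR p-values Usp28 was called lower in Ras -/- cells (log2 fold -0.83, SE 0.25, adjusted p = 0.00397). It was not called in the other comparisons with +/+, immortalized -/- cells (-0.32) and USP28 cells (-0.00) included. Groups are called below as they were labelled.

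The groups differed in more than Usp28. The 8 fibroblast markers summed to 27572 to 36302 RPM in the immortalized set and 7204 to 14908 in the Ras set, with Thy1 under 1 RPM in all 4 Ras groups. Those called in Ras -/- cells were all higher, led by Pdgfra (log2 fold 2.07) and Col3a1 (1.97). Those called in immortalized cells were all lower, led by Pdgfra in -/- (-1.86) and +/- (-2.14). In Ras +/- cells Vim rose (0.50) and the other called ones fell, led by Pdgfrb (-2.96). With USP28 only Col1a1 was called (-0.73). The +/- groups also held markers of other cell types. The 4 epithelial markers summed to 669.7 RPM in Ras +/- cells, nearly all Krt8 and Krt18, and to 0.703 to 1.15 RPM in the other Ras groups. In immortalized cells they summed to 116.8 RPM in +/- and to 5.54 and 1.41 RPM in +/+ and -/-. The 4 mesothelial markers summed to 1045 RPM in immortalized +/- cells, 21.7 in +/+ and 11.0 in -/-. In the Ras set they summed to 892.7 RPM in +/-, 424.8 in +/+, 466.1 with USP28 and 5.88 in -/- cells. In Ras +/+ and USP28 cells nearly all of this was Msln (424.6 and 465.7 RPM), which fell in +/- cells to 208.9 RPM (log2 fold -1.02). Upk1b and Wt1 rose in Ras +/- cells to 556.6 and 124.4 RPM and were under 1 RPM in the other Ras groups. Fibroblast markers summed to 30132 RPM in immortalized +/- and 12098 RPM in Ras +/- cells, within the ranges of their sets. The label MEF is therefore not settled by markers alone in the +/- groups, nor in the Ras +/+ and USP28 cells, which held Msln. Leukocyte and endothelial markers summed to between 4.09 and 22.6 RPM and skeletal muscle markers to between 27.7 and 127.4 RPM. Of these, Acta1 fell in Ras -/- (log2 fold -1.11) and Ras +/- cells (-0.71), Cd68 rose in Ras +/- cells (2.00) and Tek rose in immortalized -/- cells (1.19). Sex-linked genes differed as well. Xist measured 335.8 RPM in Ras +/+, 25.5 in +/- and 0.22 in -/- cells, and the Y-linked Eif2s3y 0, 0.15 and 22.4 RPM. With USP28 Xist measured 323.0 RPM and Eif2s3y 0.07 RPM. In immortalized +/+, +/- and -/- cells Xist measured 89.7, 296.0 and 126.1 RPM and Eif2s3y 18.6, 0 and 14.9 RPM. Another Y-linked gene, Ddx3y, was detected in every group. It measured 10.7, 12.4 and 57.5 RPM in Ras +/+, +/- and -/- cells and 13.3 RPM with USP28. Its immortalized levels were 38.3, 7.89 and 43.8 RPM in +/+, +/- and -/- cells. Ndufa1 and Ndufb11 are the members on the X chromosome. The part of cell type or sex in the folds of either set was not tested, and these cannot be told apart from genotype.

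Levels between genes were compared per kilobase of transcript. In immortalized +/+ cells the median member stood at 48.3 RPM per kb in complex I, 59.7 in complex II, 42.1 in complex III and 82.8 in complex IV. In Ras +/+ cells the medians were 37.1, 46.3, 48.5 and 88.4 RPM per kb in the same order. Genes of one complex were far from equal. Cox4i1, a complex IV subunit that binds ATP, had 344.2 RPM per kb in immortalized +/+ cells and 254.0 in Ras +/+ cells. Uqcrh, the hinge protein of complex III, had 250.6 and 233.7 RPM per kb. At the low end Ndufb4, an accessory subunit of the membrane arm of complex I, had 11.1 and 9.83 RPM per kb. Its pseudogene copy Ndufb4c, identical to it over 390 bases, had 11.94 RPM in immortalized +/+ and 5.37 in Ras +/+ cells. Ndufb4 itself had 10.8 and 9.54 RPM there. How far Ndufb4 and this copy share reads was not tested, so its low rank holds for the levels as counted. The levels per kb carry no replicate error, the tables of the sets were normalized apart, and 1 transcript length per gene was assumed.

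**Figure D1:**
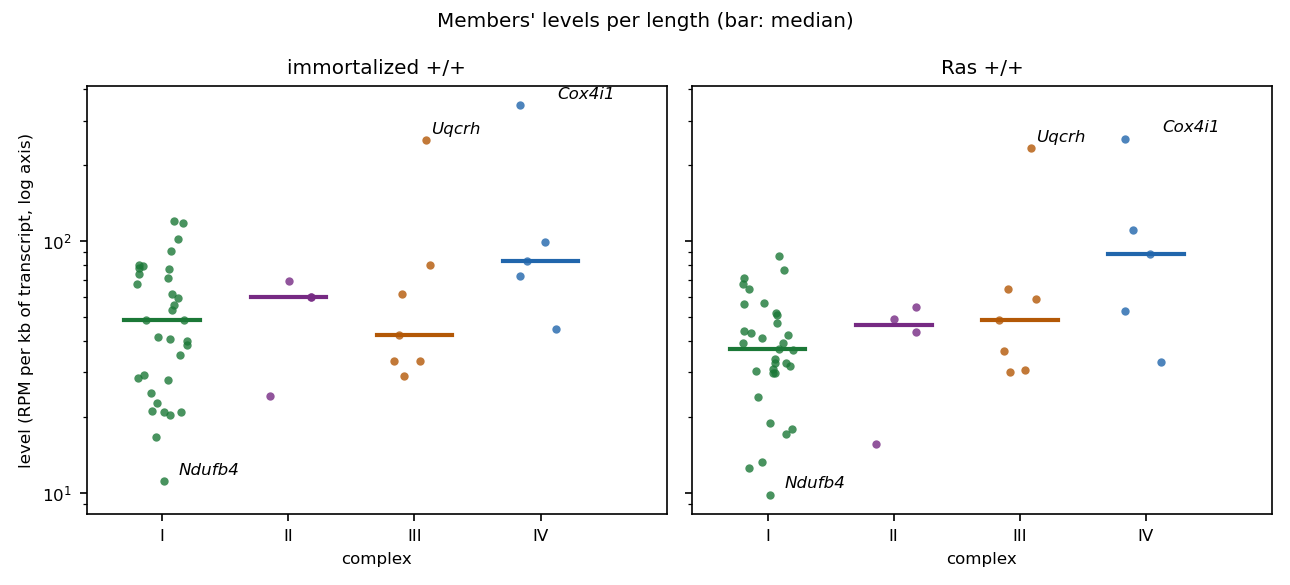
Level of each member per kilobase of transcript (RPM per kb, log axis) in immortalized +/+ and Ras +/+ cells, by complex; each point is a gene and bars are medians. Uqcrh and Cox4i1 stand above the other members of their complexes in both groups, and Ndufb4 is lowest in complex I as counted. How far Ndufb4 shares reads with its copy Ndufb4c was not tested.

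In the immortalized set no respiratory chain gene was called, neither in -/- nor in +/- cells. With edgeR p-values from the authors' deposited table, 0 of 49 members passed in -/- against +/+ cells, where 4.21% of all 16727 genes tested were called, and 0 of 49 passed in +/- against +/+ cells, where 8.25% of 17035 genes were called. Rebuilding p from the common dispersion also gave 0 in each. At an unadjusted p under 0.05, 1 member (Ndufb6, higher) passed in -/- cells and 0 in +/- cells. Member folds in -/- cells ran from -0.52 (Ndufv3) to 0.54 (Ndufb6) on the log2 scale, with a median of 0.06 beside 0.07 for all genes. In +/- cells they ran from -0.75 (Ndufa5) to 0.45 (Uqcrq), with a median of -0.12 beside -0.00 for all genes. The median implied SE was 0.26 in the first comparison and 0.39 in the second, so the second could miss changes that the Ras comparisons would call. The direct comparison of -/- with +/- cells called 0 of 49 members against 4.65% of all genes, by the Wald test on the rebuilt levels, and 1 member (Ndufa5, higher in -/-) had an unadjusted p under 0.05.

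Overexpression of USP28 in Ras +/+ cells also gave no call. By the deposited edgeR p-values 0 of 49 members passed, against 1.09% of all 15444 genes tested; at an unadjusted p under 0.05 the count was still 0, as it was with p rebuilt from the common dispersion. This comparison had the smallest median SE, 0.20. Folds ran from -0.23 (Ndufa6) to 0.43 (Ndufa5), with a median of 0.08 beside 0.01 for all genes.

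In the Ras set some members were called in each genotype comparison, more of them higher than lower. Counted either way, they were called no more often than other genes. In Ras -/- cells 9 members rose and 2 fell against Ras +/+ cells, which is 22.4% of the members, while 27.6% of all 15868 genes tested were called (15.2% higher and 12.4% lower; 26.9% either way among genes in the members' range of levels). In Ras +/- cells 13 rose and 1 fell, or 28.6%, beside 34.1% of all 15950 genes (17.5% higher and 16.7% lower; 34.9% in the members' range of levels). The share called either way is thus below the background in each comparison, so being called at all sets the members apart in neither. By direction, the 13 of 49 called higher in +/- cells are a larger share than the 17.5% of all genes. The 1 called lower there is a smaller share than the 16.7%. In -/- cells the 9 called higher are a larger share than 15.2%, and the 2 called lower a smaller one than 12.4%. This direction was not tested for the members as a set. The members' median log2 fold was 0.21 in Ras -/- and 0.30 in Ras +/- cells, with -0.01 and 0.01 for all genes. Both comparisons use the same +/+ libraries, so values that move in both are not independent of each other. Of the 49 members, 28 were called in none of the 5 comparisons with +/+.

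**Figure D2:**
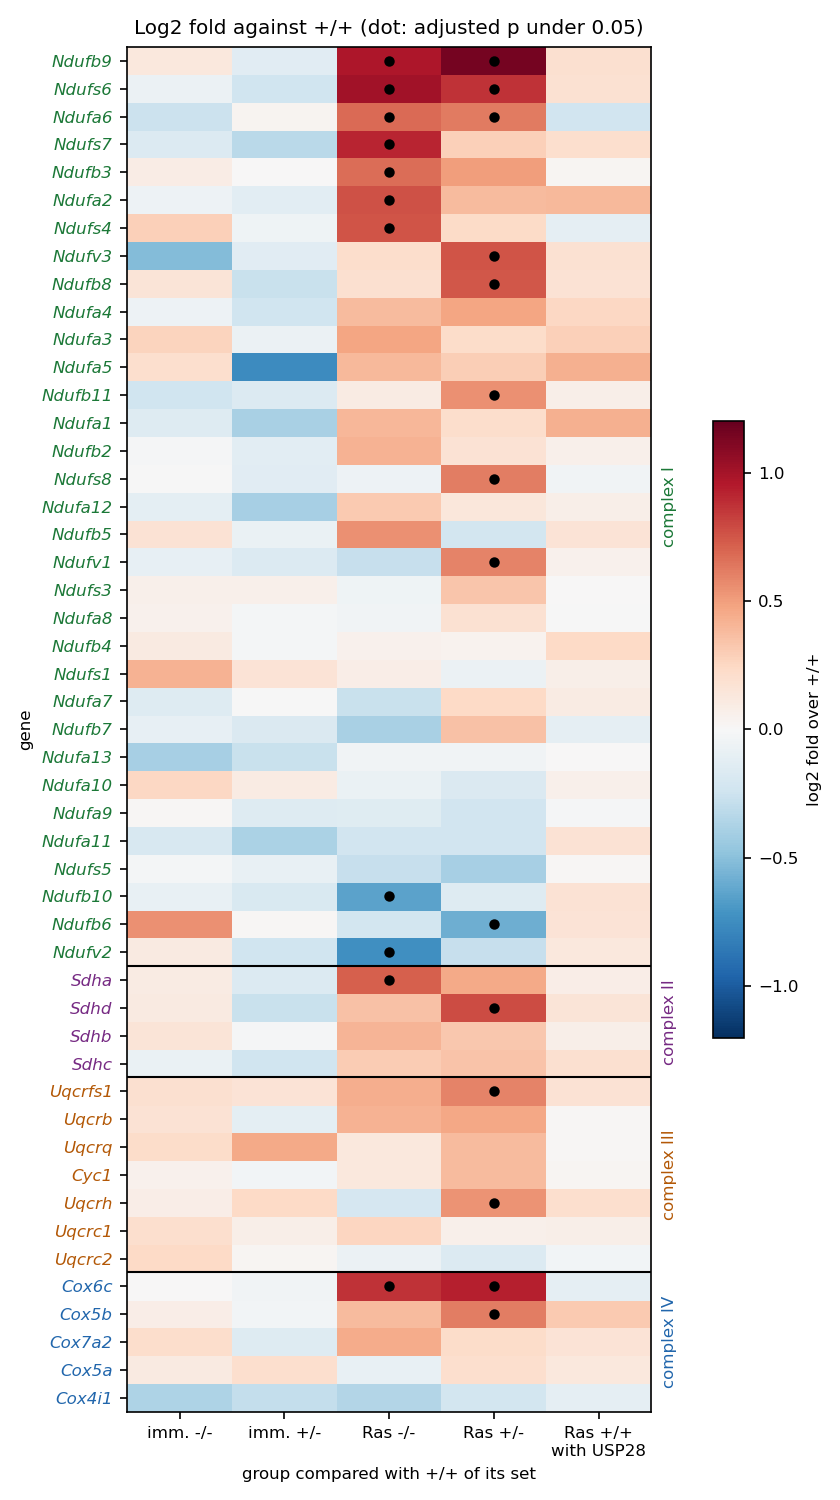
Log2 fold over +/+ of all 49 members (rows, by complex) in the 5 comparisons with +/+ (columns); red is higher, blue is lower, and a dot marks an adjusted p under 0.05. Dots are found in the Ras -/- and Ras +/- columns alone, 11 and 14 of them.

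Complex I had 9 of 33 members called in each of these comparisons (27.3%), no more than the share of all genes. Its members divide into 6 core subunits of the arm that takes NADH, most of which hold a flavin or iron-sulfur centre, and 27 accessory subunits. Ndufa4 is counted with them here by its name, although the protein is now placed in complex IV. Of the core subunits, 1 rose and 1 fell in Ras -/- cells and 2 rose in Ras +/- cells. Of the accessory subunits, 6 rose and 1 fell in each.

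Ndufb9 (ENSMUSG00000022354, GRCm38 chromosome 15, 58933756 to 58939488, plus strand) encodes an accessory subunit of the membrane arm. It stood at 36.4 RPM in Ras +/+, 41.5 with USP28, 71.4 in -/- and 81.0 in +/- cells. The level was about doubled in both groups with a disrupted allele and near control with USP28. The log2 fold was 0.97 (SE 0.22, adjusted p = 0.000143) in -/- and 1.15 (SE 0.22, adjusted p = 1.77e-06) in +/- cells, and the latter was the largest of any member in the 5 comparisons with +/+. In the immortalized set Ndufb9 measured 64.0 RPM in +/+, 58.3 in +/- and 69.6 in -/- cells, with no call. Another annotated gene, Gm49356, shares 19.5% of its exon bases on the same strand, so reads there cannot be assigned to one of them.

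Ndufs6 (ENSMUSG00000021606, chromosome 13, 73319838 to 73328542, minus strand) encodes a zinc-binding accessory subunit needed late in assembly of the NADH arm. Its level was 10.2 RPM in Ras +/+, 11.6 with USP28, 18.6 in +/- and 20.5 in -/- cells. It rose by a log2 fold of 1.01 (SE 0.26, adjusted p = 0.000886) in -/- and 0.87 (SE 0.26, adjusted p = 0.00411) in +/- cells. Immortalized cells held 22.7, 19.3 and 21.6 RPM in +/+, +/- and -/-, with no call. The neighbour Mrpl36, which starts from the opposite strand and shares 30 exon bases with Ndufs6, went from 3.8 RPM in Ras +/+ to 21.3 in +/- and 18.7 in -/- cells. The pseudogene copy Ndufs6b, 96.6% identical over 348 bases, went from 5.7 to 10.1 and 10.8 RPM. Part of the Ndufs6 signal may belong to that copy, and this was not tested.

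Ndufs7 and Ndufv2 are core iron-sulfur subunits, and they moved in opposite directions in Ras -/- cells. Ndufs7 (ENSMUSG00000020153, chromosome 10, 80249121 to 80256794, plus strand), which carries the last iron-sulfur centre before ubiquinone, stood at 35.7 RPM in Ras +/+, 41.2 with USP28, 43.6 in +/- and 67.2 in -/- cells. Its log2 fold in -/- cells was 0.91 (SE 0.23, adjusted p = 0.000441), and the 0.29 in +/- cells was not called. Ndufv2 (ENSMUSG00000024099, chromosome 17, 66078638 to 66101559, minus strand), of the NADH-binding module, stood at 69.9 RPM in Ras +/+, 76.1 with USP28, 57.8 in +/- and 41.9 in -/- cells. It fell in -/- cells with a log2 fold of -0.74 (SE 0.22, adjusted p = 0.00534), and the -0.28 in +/- cells was not called.

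Of the other core subunits, 2 were called in Ras +/- cells and 0 in -/- cells. Ndufv1, which binds FMN and NADH, went from 84.5 RPM in Ras +/+ to 127.8 RPM in +/- cells (log2 fold 0.60, SE 0.21, adjusted p = 0.0181), and -/- cells held 69.9 RPM. Ndufs8, an iron-sulfur subunit next to Ndufs7, went from 33.5 to 51.3 RPM (log2 fold 0.62, adjusted p = 0.0226), with 32.2 RPM in -/- cells. The remaining core genes Ndufs1 and Ndufs3 were not called. Whether such genes differ between -/- and +/- cells was tested directly, as given below.

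Among the accessory subunits, Ndufa6 rose in both groups: it stood at 18.8 RPM in Ras +/+, 16.02 with USP28, 28.8 in +/- and 30.1 in -/- cells. Its log2 folds were 0.68 (SE 0.24, adjusted p = 0.0219) in -/- and 0.62 (SE 0.24, adjusted p = 0.0316) in +/- cells. Ndufa2 rose in -/- cells (24.3 to 41.3 RPM, log2 fold 0.77, SE 0.23, adjusted p = 0.00646), where +/- and USP28 cells had 31.5 and 31.7 RPM. Ndufs4, a subunit whose loss causes complex I deficiency in mice and people, rose in -/- cells from 22.5 to 37.9 RPM (log2 fold 0.75, SE 0.24, adjusted p = 0.00742), where +/- cells had 26.4 RPM. Ndufb3 rose in the same comparison by a log2 fold of 0.67, and Ndufb10, of the membrane arm, fell there with a log2 fold of -0.64.

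Further accessory genes were called in Ras +/- cells. Ndufv3, a small subunit of the NADH-binding module, rose from 19.7 to 33.4 RPM (log2 fold 0.76, SE 0.24, adjusted p = 0.0060), while -/- cells had 22.8 RPM. Ndufb8, whose protein is often used to follow assembled complex I, rose from 43.7 to 73.4 RPM (log2 fold 0.75, SE 0.22, adjusted p = 0.00308), while -/- cells had 49.9 RPM. Ndufb11 rose by a log2 fold of 0.54 and Ndufb6 fell, with a log2 fold of -0.59. Ndufb6 shares 39.0% of its exon bases with Smim27 on the opposite strand, which went from 11.3 to 7.79 RPM. Ndufb11 shares 12.9% with Rbm10 on the opposite strand, which went from 49.6 to 65.0 RPM. Ndufb8 shares 4.3% with Gm20538 on the same strand, which went from 19.4 to 33.9 RPM. How far these share reads was not tested. The 24 complex I genes not called in -/- cells had folds from -0.39 to 0.55, and the 24 not called in +/- cells from -0.39 to 0.50.

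Complex II lay above +/+ in all 4 members in both Ras genotype comparisons, and 1 member was called in each. With USP28 all 4 also lay above Ras +/+ (log2 folds from 0.07 to 0.19), with no call. Sdha (ENSMUSG00000021577, chromosome 13, 74322254 to 74350280, minus strand), the flavoprotein that oxidizes succinate, stood at 142.1 RPM in Ras +/+, 150.6 with USP28, 194.6 in +/- and 233.3 in -/- cells. It rose in -/- cells by a log2 fold of 0.72 (SE 0.21, adjusted p = 0.00443), and the 0.45 in +/- cells had an adjusted p of 0.0815. Sdhd (ENSMUSG00000000171, chromosome 9, 50596357 to 50603812, minus strand), a membrane anchor that binds ubiquinone, stood at 67.1 RPM in Ras +/+, 74.7 with USP28, 85.6 in -/- and 115.6 in +/- cells. It rose in +/- cells by a log2 fold of 0.79 (SE 0.22, adjusted p = 0.00130), and the 0.35 in -/- cells was not called. Sdhb, the iron-sulfur subunit, and Sdhc, the other anchor, had folds from 0.31 to 0.41 in the Ras comparisons and were not called.

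Complex III had 0 of 7 members called in Ras -/- cells, where the lowest adjusted p was 0.136, and 2 of 7 higher in Ras +/- cells. Uqcrh (ENSMUSG00000063882, chromosome 4, 116066965 to 116075071, minus strand) stood at 127.8 RPM in Ras +/+, 146.5 with USP28, 186.1 in +/- and 111.2 in -/- cells. Its log2 fold of 0.54 in +/- cells (SE 0.21, adjusted p = 0.0324) was called, and the -0.20 in -/- cells was not. Uqcrfs1, the Rieske iron-sulfur protein, rose in +/- cells from 41.7 to 63.2 RPM (log2 fold 0.60, adjusted p = 0.0222). The core proteins Uqcrc1 and Uqcrc2, cytochrome c1 (Cyc1), Uqcrb and Uqcrq were not called.

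In complex IV, Cox6c (ENSMUSG00000014313, chromosome 15, 35925886 to 35938246, minus strand), a small nuclear-encoded subunit, had 44.5 RPM in Ras +/+, 41.3 with USP28, 81.2 in -/- and 84.7 in +/- cells. The log2 fold was 0.87 (SE 0.22, adjusted p = 0.000686) in -/- and 0.93 (SE 0.22, adjusted p = 0.000136) in +/- cells. In immortalized +/+, +/- and -/- cells Cox6c was flat at 49.7, 48.3 and 49.95 RPM. Its pseudogene copy Cox6c2, 97.0% identical over 231 bases, followed it in the Ras set at 13.2, 33.5 and 26.4 RPM in +/+, +/- and -/- cells. The overlapping Vps13b on the other strand, which shares 7.0% of the exon bases, had 25.6, 45.95 and 44.02 RPM. How far these share reads was not tested. Cox5b rose in +/- cells from 28.5 to 43.6 RPM (log2 fold 0.61, adjusted p = 0.0249), and Cox4i1, Cox5a and Cox7a2 were not called.

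**Figure D3:**
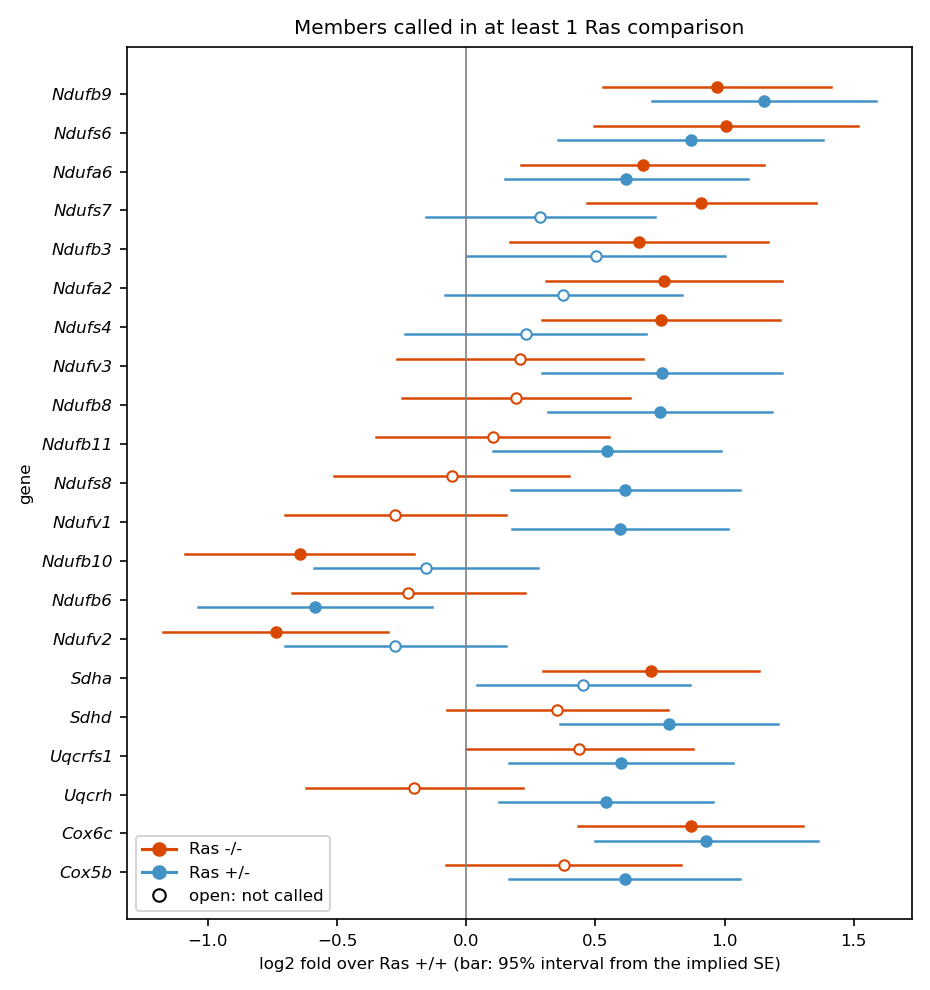
Log2 fold over Ras +/+ with the 95% interval from the implied SE for the 21 members called in a Ras comparison, in -/- (orange) and +/- (blue) cells; open points were not called. Ndufb9, Ndufs6 and Cox6c lie near a doubling in both groups, and Ndufv2 and Ndufb10 lie below 0 in both.

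**Figure D4:**
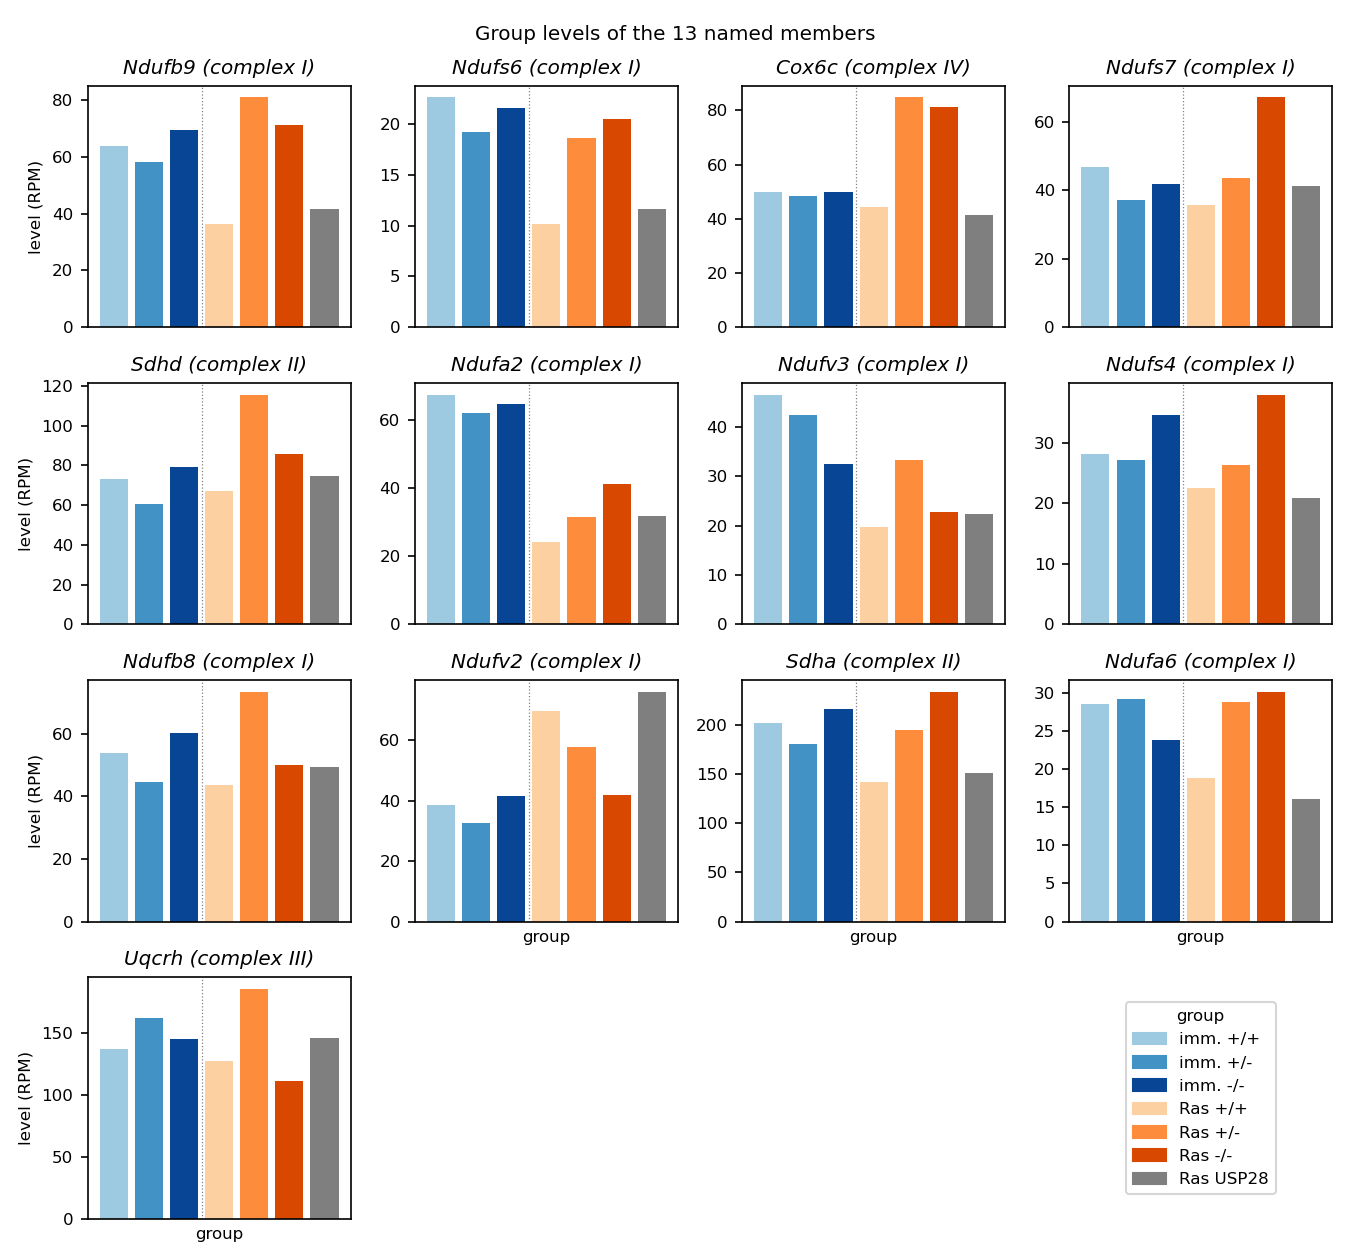
Level (RPM) of 13 members in the 7 groups; bars are single group values with no replicate error. For Ndufb9, Ndufs6 and Cox6c the Ras +/- and -/- bars stand above the Ras +/+ and USP28 bars, while the immortalized bars differ little among themselves.

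A direct comparison of Ras -/- with Ras +/- cells called 1 of 49 members, Ndufv1, against 24.5% of all 16107 genes tested. Ndufv1 was lower in -/- cells, with 69.9 RPM against 127.8 (log2 fold -0.87, SE 0.30, adjusted p = 0.0181). Uqcrh (log2 fold -0.74, adjusted p = 0.0502) and Ndufb5 (log2 fold 0.77, adjusted p = 0.0514) came next. The error used here sums the dispersions of both comparisons and is an upper bound at the common dispersion. An alternative added after the data were seen gave each group the dispersion of its own comparison with +/+. With it 8 of 49 members were called (2 higher and 6 lower), beside 5913 of all 16107 genes tested. Of genes called against +/+ in 1 of the groups, Ndufv1 alone was thus shown to differ between the groups under the error used here.

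The fold of each genotype group over +/+ was also compared between the sets, with a Wald test on the difference of log2 folds. This test was added after the data were seen. For -/- cells 3 of 49 members had a higher fold in the Ras set and 0 a lower one, beside 20.6% of all genes called either way. They were Ndufs7 (difference 1.07, SE 0.35, adjusted p = 0.0136), Ndufs6 (1.07, SE 0.38, adjusted p = 0.0291) and Ndufa6 (0.94, SE 0.37, adjusted p = 0.0499). For +/- cells 1 member differed, Ndufb9 (1.29, SE 0.45, adjusted p = 0.0349), beside 13.2% of all genes.

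Many of the partner genes in mitochondrial DNA were lower in Ras -/- and Ras +/- cells. None of these 13 protein-coding genes is a member; each encodes a core subunit of complex I, III or IV or of ATP synthase. In Ras -/- cells 10 of 13 fell and 0 rose, with a median log2 fold of -0.76, beside 12.4% of all genes called lower. In Ras +/- cells 7 fell and 0 rose, with a median of -0.51, beside 16.7% of all genes. The lowest was mt-Nd2, a membrane subunit of complex I, which went from 1135 RPM in Ras +/+ to 561.8 in +/- and 460.2 in -/- cells (log2 folds -1.01 and -1.30, adjusted p = 7.41e-06 and 1.09e-08, SE 0.21 each). All 7 mt-Nd genes of complex I fell in -/- cells, and mt-Co1, mt-Co2 and mt-Atp6 were not called in either group. With USP28, 0 of 13 were called and the median was 0.19. In the immortalized set 1 was called, mt-Atp8, which was higher in -/- cells (log2 fold 0.80, adjusted p = 0.0490). There 4.21% of all genes were called either way. The medians in this set were 0.57 in -/- and 0.28 in +/- cells. The difference between the sets was called for 12 of 13 in -/- cells, beside 20.6% of all genes called either way. In +/- cells it was called for 3 of 13, beside 13.2% of all genes. Each of these was lower in the Ras set.

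Summed over genes, the 13 mitochondrial transcripts gave 14036 RPM in Ras +/+, 16342 with USP28, 10752 in +/- and 8688 in -/- cells. The 49 nuclear members summed to 2396, 2538, 2908 and 2680 RPM in the same groups. The ratio of mitochondrial to nuclear transcripts was therefore 5.86 in Ras +/+, 6.44 with USP28, 3.70 in +/- and 3.24 in -/- cells. In the immortalized set it was 1.78 in +/+, 2.36 in +/- and 2.53 in -/- cells, the opposite order. The libraries were selected for poly(A) tails, so these values follow polyadenylated transcripts and not mitochondrial DNA.

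**Figure D5:**
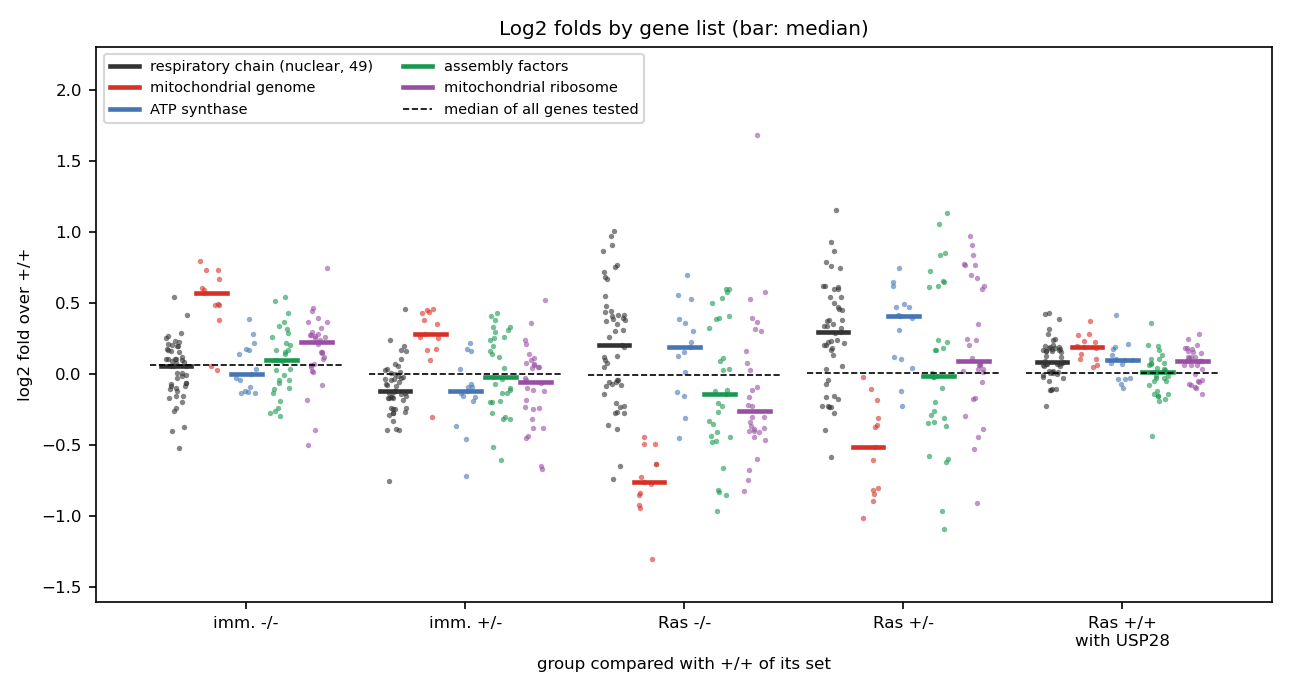
Log2 folds over +/+ for the 49 members and 4 other gene lists in the 5 comparisons; points are genes, bars are list medians and the dashed line is the median of all genes tested. In Ras -/- and Ras +/- cells the mitochondrial genome lies below 0, with medians of -0.76 and -0.51, while the members' medians are 0.21 and 0.30.

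Other nuclear genes of oxidative phosphorylation that were called in Ras cells were higher, at shares to be read against the 15.2% (-/-) and 17.5% (+/-) of all genes called higher. Of 15 ATP synthase genes, 2 rose and 0 fell in Ras -/- cells (Atp5d, log2 fold 0.69, and Atp5b, 0.53), and 3 rose in +/- cells (Atp5k 0.75, Atp5g2 0.65 and Atp5j 0.62). These counts of 15 are near the shares of all genes. Of 2 further complex III subunits, Uqcr11 rose in both groups (0.85 in -/- and 0.65 in +/-) and Uqcr10 in +/- cells (0.69). Of 6 further complex IV subunits tested, 3 rose in +/- cells (Cox8a 1.04, Cox7b 0.80 and Cox7c 0.72) and 0 in -/- cells. Of 4 further complex I subunits, 0 were called. Cytochrome c, 1 gene, was not called in any comparison.

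Assembly factors insert cofactors and join subunits. Of 31, 5 fell and 0 rose in Ras -/- cells (median log2 fold -0.14), led by the complex I factor Ndufaf4 (-0.96), Coa3 (-0.85), Ndufaf6 (-0.83), the haem A enzyme Cox10 (-0.81) and Uqcc2 (-0.66). In Ras +/- cells 7 rose and 3 fell (median -0.01), and the haem A enzyme Cox15 (1.13) and Cox14 (1.06) rose while Ndufaf4 (-1.09) and Acad9 (-0.96) fell. The share called either way was 16.1% in -/- and 32.3% in +/- cells, below the 27.6% and 34.1% of all genes. Of 30 mitochondrial ribosome genes, 1 rose and 4 fell in -/- cells (16.7%). The one that rose was Mrps6, from 81.0 to 260.0 RPM (log2 fold 1.68, SE 0.21, adjusted p = 3.01e-13). In +/- cells 10 rose and 2 fell (40.0%), led by Mrpl13 (0.97) and Mrpl4 (0.90) upward and Mrps10 (-0.91) downward.

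Of 13 regulators of mitochondrial content tested, 2 rose and 1 fell in each Ras comparison, which is 23.1% and below the share of all genes. Ppargc1b, a coactivator of mitochondrial biogenesis, rose in Ras -/- cells from 2.67 to 9.17 RPM (log2 fold 1.78, SE 0.36, adjusted p = 3.26e-06). Polrmt, the mitochondrial RNA polymerase, rose there too (log2 fold 0.86, adjusted p = 0.000945), and the coactivator Pprc1 fell (-0.56). In +/- cells Twnk, the mitochondrial DNA helicase, rose (1.07), as did Esrra (0.95), and Nrf1 fell from 56.3 to 38.9 RPM (-0.53, adjusted p = 0.0482). Of 13 citric acid cycle genes, which supply NADH and succinate, 0 were called in -/- cells by the deposited edgeR p-values, while among those called in +/- cells Idh3g rose (0.69) and Sucla2 (-0.65) and Dld (-0.55) fell. In the immortalized and USP28 comparisons 0 genes of the ATP synthase, assembly, ribosome, regulator and citric acid cycle lists were called.

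Most members have short transcripts, and in Ras +/- cells the folds of all genes varied with transcript length. Among protein-coding transcripts under 1000 nt, the median log2 fold of all 781 genes tested was 0.16 in Ras +/- cells, beside 0.30 for the 29 members in that class. In Ras -/- cells it was 0.03 for 785 genes, beside 0.38 for those members. The part of length in the member folds was not tested. Of the members, 19 share exon bases with another annotated gene and 9 have a pseudogene copy at least 95% identical over at least 100 bases, and how the authors' counting treated such reads is not given in the sources used here.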

How the data were processed

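Per the labels, libraries of poly(A) RNA were made with either of 2 NEBNext kits and read on a Genome Analyzer IIx; no label says which library had which kit. The submitters' processing notes name CASAVA, FastQC, Bowtie 0.12.8, the build mm9 and edgeR. Per the file headers, each comparison in the deposited tables has a p-value, a log2 concentration and a log2 ratio with +/+ in the numerator, to which the Ras table adds the authors' adjusted p-value. After 35 and 24 repeated lines were dropped, 37576 and 33440 genes remained.

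Group levels were rebuilt here as 2 to the power of the log2 concentration plus or minus 0.5 times the log2 ratio. Low levels lie on steps of 1 read, which gave the depth summed over a group; of the values below 20 reads, 79.6% to 100% per group came out whole to within 0.1. The header's direction of the ratio was checked: +/+ levels then match between comparisons of a table, within a median of 0.00091 on the log2 scale. A common dispersion was fitted to the deposited p and equals a coefficient of variation of 21.2% (immortalized -/-), 32.5% (immortalized +/-), 14.4% (Ras -/-), 14.3% (Ras +/-) and 12.7% (USP28); rebuilt z values correlated with the deposited ones at r of 0.9987 to 0.9998 across genes. Comparisons without the +/+ group used an approximate Wald test with 0.5 reads added. The formula was run on simulated counts modelled on comparisons with +/+, at a known dispersion. Those p-values came from the same formula, so the simulation cannot check the dispersion fit. Nor does it check the summed dispersion of the direct comparisons. Genes were called at an adjusted p under 0.05.

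The members, the gene lists and the tests were chosen with earlier results of these data known. The genes described with levels in every group are the called members, up to the 12 of largest absolute log2 fold, plus the highest member of a complex without one. Alternatives changed the filter, centring, dispersion, threshold and adjustment. Symbols, lengths and GRCm38 coordinates came from GENCODE vM21, and pseudogene copies were found with blastn 2.17.0+; promoters are RefSeq's. Coordinates of the authors' build were not used. A gene of the citric acid cycle list is not reported here. Python 3.11.15, numpy 2.4.6, pandas 2.3.3, scipy 1.17.1 and matplotlib 3.10.9 were used.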

Additional observations from a re-analysis of the deposited data

Results flagged for a closer look

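The log2 fold of a genotype group over +/+ differed between the Ras and the immortalized set for 4 respiratory chain genes, by a Wald test. Markers of cell type and sex also differed between these groups and cannot be told apart from genotype. Their part was not tested. In -/- against +/+ cells, Ndufa6 was higher by 0.94 in the Ras set than in the immortalized set (0.68 against -0.26), Ndufs6 by 1.07 (1.00 against -0.07) and Ndufs7 by 1.07 (0.91 against -0.16). In +/- against +/+ cells, Ndufb9 was higher by 1.29 in the Ras set (1.15 against -0.13). These 3 and 1 of 49 members stand beside 20.6% and 13.2% of all genes called in the same tests, so such a difference was no more frequent among the members than among other genes. No group had values for 4 or more single libraries, so outlying libraries could not be looked for.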

How the results depend on the processing

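No paired analysis was possible because the deposited tables hold comparisons of groups and no values for single libraries, and for the same reason no library could be left out. The calls in the immortalized comparisons, direct comparison included, and with USP28 were 0 of 49 under every alternative run. In Ras -/- against +/+ cells the count of 11 became 4 with the dispersion doubled, and stayed between 8 and 11 under the other alternatives. In Ras +/- against +/+ cells the count of 14 became 4 with the dispersion doubled, 6 at an adjusted p under 0.01 and 9 with the authors' adjusted p. In the direct Ras comparison the count of 1 became 2 with folds centred on the median gene. It became 0 with the dispersion doubled or an adjusted p under 0.01. With each group given the dispersion of its own comparison with +/+ (added after the data were seen), the count was 8. The differences between the sets, 3 members for -/- and 1 for +/-, became 0 and 0 with the dispersion doubled, 0 and 0 at an adjusted p under 0.01, and 6 and 1 with folds centred. The cause was not tested beyond the construction of each alternative. The calls of Cox6c, Ndufb9, Ndufs6 and Ndufs7 in Ras -/- cells and of Cox6c, Ndufb9, Ndufs6 and Sdhd in Ras +/- cells held under all 7 alternatives run for them. Ndufb11 in Ras +/- cells was lost under 5 of the 7. Over all genes, the counts called fell with the dispersion doubled from 705 to 282 (immortalized -/-), 1406 to 814 (immortalized +/-), 4381 to 2645 (Ras -/-), 790 to 377 (immortalized -/- against +/-) and 3945 to 2427 (Ras -/- against +/-). For immortalized -/- cells the stricter threshold of 0.01 gave 424, and centring turned the split of 215 higher and 490 lower into 144 and 565. With each group given the dispersion of its own comparison with +/+, the direct comparisons called 1472 (immortalized) and 5913 (Ras) genes. A gene that varies between cultures more than the common dispersion has an SE that is too small here.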
